A study of Mus musculus with 2 samples.

Results

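The imprinted Meg3, Rian and Mirg locus of mouse chromosome 12 was examined in 2 deposited lists of tissue-specifically transcribed regions, in which 9 of 1912 listed regions lay between positions 110700000 and 111100000 of the mm9 genome build. All 9 belonged to the limb list, which holds 1078 regions, and 0 of the 834 regions of the heart list lay there. The 9 regions are called R1 to R9 here, in genome order, with positions as deposited. The study profiled RNA made outside annotated genes to look for transcription at distant enhancers. The regions were selected on measured values, because by its methods a region was listed where its reads were higher in the one tissue than in the other by a two-proportion z-test, so the limb to heart difference of the members is a description and carries no test.

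Total RNA came from heart and limb microdissected from CD-1 mouse embryos at embryonic day 11.5. There was 1 sample per tissue, pooled from several embryos, and both were depleted of ribosomal RNA, so there are no replicates and intervals below cover counting error only. Read counts and RPKM (read counts scaled by region length and by the total mapped reads of the library) were deposited for both tissues in every listed region. The library totals recovered from the counts and RPKM were 222362239 for heart and 192488089 for limb.

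The Dlk1-Dio3 domain is a classic imprinted domain, in which the coding genes Dlk1, Rtl1 and Dio3 are expressed from the paternally inherited chromosome and a series of long non-coding RNAs from the maternally inherited one. Meg3 (also called Gtl2) is a long non-coding RNA, Rian hosts C/D box snoRNAs, small RNAs that guide methylation of other RNAs, and Mirg hosts miRNAs, small RNAs that repress messenger RNAs through a short seed. The allele of origin was not analysed here. Neither were the transcripts of Meg3, Rian and Mirg themselves, because regions overlapping known genes, messenger RNAs or ESTs were taken out of the lists before deposit. The strand of the reads was kept in the libraries but is not in the deposited values, so a region cannot be assigned to a strand.

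In the GENCODE vM1 annotation of this build, Dlk1 spans chr12:110691033-110701546 on the plus strand and so ends just inside the window, while Dio3, at chr12:111517278-111519307, lies outside it. Meg3 spans chr12:110779211-110809936, Rian chr12:110842155-110899919 and Mirg chr12:110973191-110987665, all 3 on the plus strand. Rtl1, a coding gene derived from a retrotransposon, lies between Meg3 and Rian at chr12:110827404-110838540 on the minus strand. The window holds 56 annotated miRNA genes and 23 annotated snoRNA genes, of which 13 snoRNA genes lie inside Rian. R1 lay in the 32218 bp between Meg3 and Rian. R2 to R9 lay in the 73271 bp between the end of Rian and the start of Mirg, a stretch that holds 27 miRNA and 10 snoRNA genes and of which the 8 regions covered 10.5%. No region overlapped Dlk1, Meg3, Rtl1, Rian or Mirg.

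The sequences that place the regions are those of the small RNAs beside them. RefSeq hairpins were placed on the build by exact sequence match, which put 57 in the window, 54 of them on the plus strand, 28 between Rian and Mirg and 10 inside Mirg. The mature miRNA sequences matched to the hairpin nearest to each region are shown, from R1 to R9, with the seed (bases 2 to 8) in capitals.
mmu-miR-3070-5p: aGCCCCUGaccuugaaccuggga
mmu-miR-3070-3p: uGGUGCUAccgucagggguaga
mmu-miR-882: aGGAGAGAguuagcgcauuagu
mmu-miR-379-5p: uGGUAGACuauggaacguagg
mmu-miR-379-3p: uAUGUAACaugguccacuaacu
mmu-miR-380-5p: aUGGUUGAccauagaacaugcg
mmu-miR-380-3p: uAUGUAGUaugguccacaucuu
mmu-miR-329-5p: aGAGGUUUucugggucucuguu
mmu-miR-329-3p: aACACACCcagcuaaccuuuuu
mmu-miR-495-5p: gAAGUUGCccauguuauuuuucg
mmu-miR-495-3p: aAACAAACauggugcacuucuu
mmu-miR-376c-5p: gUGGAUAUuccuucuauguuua
mmu-miR-381-5p: aGCGAGGUugcccuuuguauauu
mmu-miR-381-3p: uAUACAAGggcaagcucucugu
mmu-miR-539-5p: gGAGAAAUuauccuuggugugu
The 15 mature sequences came from 9 hairpins and held 15 different seeds. For Mir376c and Mir539 only a 5p sequence was matched, so the seeds of their other arms were not compared. Among the 106 mature sequences matched to the placed hairpins there were 97 seeds, of which 9 were shared by a pair of miRNAs. The seed of miR-3070-3p is also that of miR-3070-2-3p, the seed of miR-379-5p that of miR-1193-5p, the seed of miR-379-3p that of miR-411-3p, and the seed of miR-376c-5p that of miR-376b-5p, and these partners come from hairpins of the same window. None of 1679 mature RefSeq miRNAs was found, on either strand, inside R1 to R9.

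R4 and R6 ended closest to a hairpin, and the plus strand from the last 60 bases of each region to the end of that hairpin is printed with the mature miRNAs in capitals, Mir495 after R6 (chr12:110956866-110957026) and Mir380 after R4 (chr12:110949942-110950073). This pair of stretches was chosen after the distances were seen.
R6 to Mir495: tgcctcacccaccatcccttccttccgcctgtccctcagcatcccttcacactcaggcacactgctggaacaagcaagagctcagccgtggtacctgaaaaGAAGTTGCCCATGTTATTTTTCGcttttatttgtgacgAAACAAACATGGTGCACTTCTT
R4 to Mir380: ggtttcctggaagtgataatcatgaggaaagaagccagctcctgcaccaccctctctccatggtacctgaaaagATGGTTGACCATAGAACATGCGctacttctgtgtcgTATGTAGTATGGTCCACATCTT
Between the last base of R4 and the first base of the Mir380 hairpin lay 11 bases, and between R6 and the Mir495 hairpin lay 38. Both stretches share a run of 15 bases, tggtacctgaaaaga, which starts before the RefSeq hairpin and ends at base 2 of miR-495-5p and at base 1 of miR-380-5p.

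R2 held the whole of an annotated snoRNA gene, SNORD113, at chr12:110926265-110926335 on the plus strand. SNORD113 genes encode C/D box snoRNAs, named after short sequence boxes near their ends. The copy in R2 and the annotated copy most like it, AF357355 inside Rian at chr12:110892837-110892908, are shown with the letters TGATGA (C box) and CTGA within the last 12 bases (D box) in capitals where they occur, searched on the gene's own strand.
SNORD113 in R2: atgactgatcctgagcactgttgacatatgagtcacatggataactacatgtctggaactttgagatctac
AF357355: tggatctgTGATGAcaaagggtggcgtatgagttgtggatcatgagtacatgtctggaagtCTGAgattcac
The R2 copy, of 71 bases, held no exact TGATGA and no exact CTGA within its last 12 bases, though CTGA occurs nearer its start. Of the other 22 annotated snoRNA genes of the window, 18 held TGATGA, 14 held CTGA within the last 12 bases and 11 held both. Identity of the R2 copy to those 22 was 57.9% at the median, from 49.3% to 65.3%, with AF357355 the highest. The central 300 bases of R2, chr12:110926290-110926589, hold the end of this copy, which is in capitals, and the central 300 bases of R6, chr12:110956355-110956654, hold no annotated gene.
R2 centre: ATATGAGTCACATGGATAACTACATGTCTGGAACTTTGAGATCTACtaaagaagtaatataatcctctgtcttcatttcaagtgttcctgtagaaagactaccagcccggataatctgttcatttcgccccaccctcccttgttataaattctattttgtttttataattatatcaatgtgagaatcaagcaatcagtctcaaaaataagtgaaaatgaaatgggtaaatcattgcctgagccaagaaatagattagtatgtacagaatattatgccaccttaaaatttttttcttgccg
R6 centre: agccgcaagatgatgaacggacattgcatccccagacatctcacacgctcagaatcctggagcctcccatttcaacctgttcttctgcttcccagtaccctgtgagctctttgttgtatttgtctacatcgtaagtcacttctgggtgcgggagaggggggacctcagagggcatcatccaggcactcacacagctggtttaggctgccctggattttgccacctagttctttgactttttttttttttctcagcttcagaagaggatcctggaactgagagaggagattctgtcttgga
The R2 window had a GC content of 33.7% and the R6 window 49.7%. Over whole regions GC content ran from 32.6% in R3 to 52.4% in R1, with a median of 47.5%, against 42.6% at the median of the 50 other limb regions of chromosome 12, whose values ran from 28.6% to 64.2%. A blastn search of the 9 regions against each other found a match with an E-value up to 0.001 in 0 of 36 pairs.

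**Figure D1:**
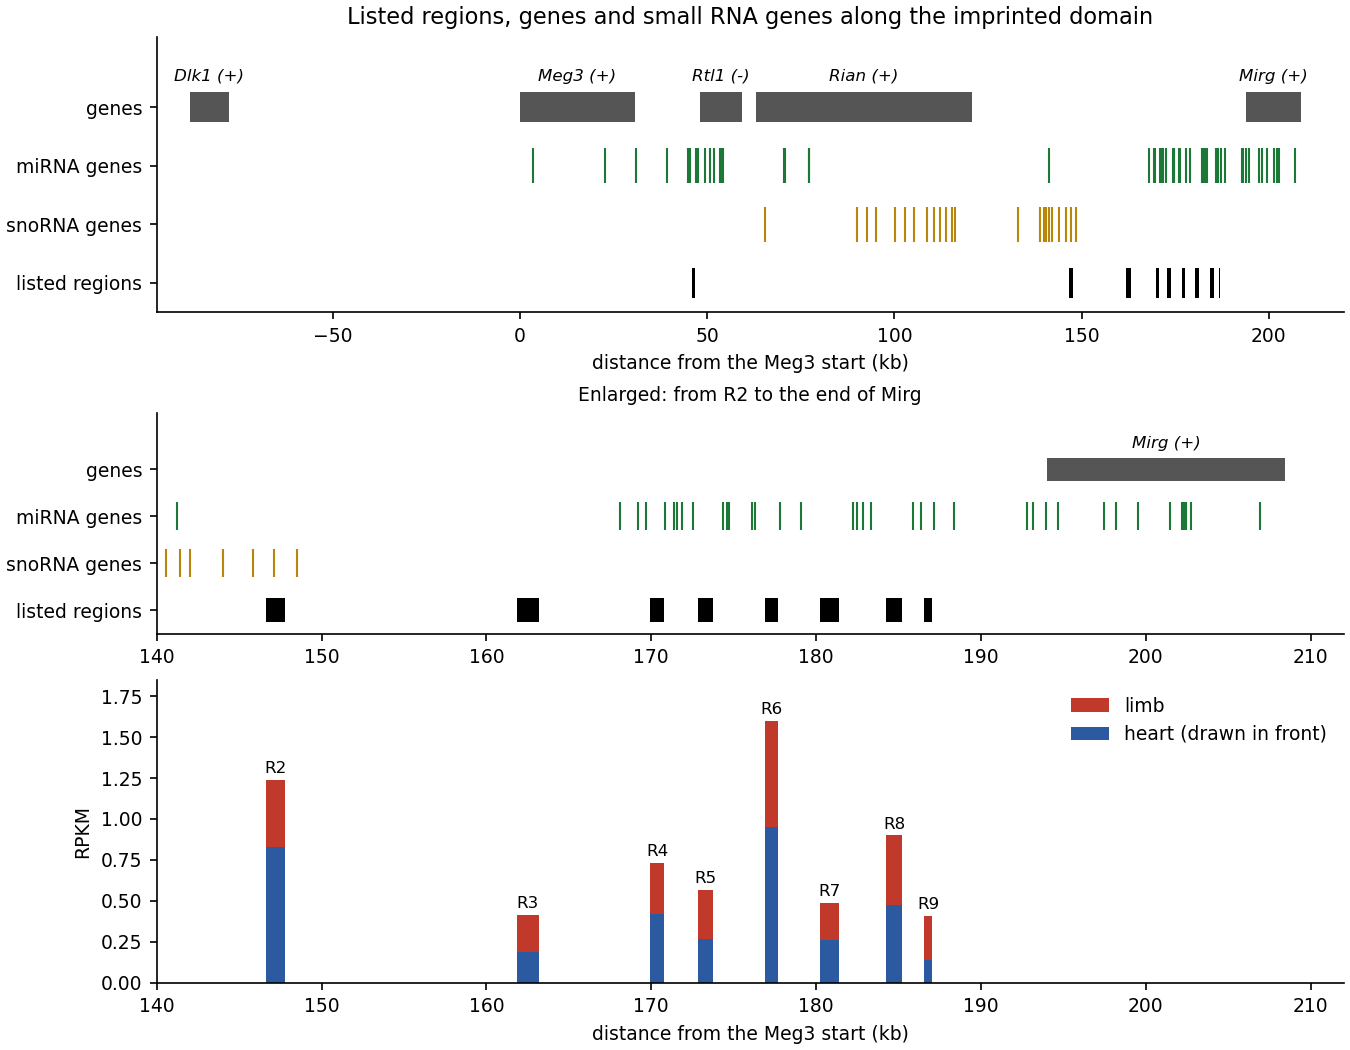
Positions of the 9 listed regions, the genes and the annotated miRNA and snoRNA genes by distance from the Meg3 start in kb, in the whole window (top) and from R2 to the end of Mirg (middle), with the RPKM of R2 to R9 in limb and heart (bottom, heart drawn in front of limb). R2 to R9 lie between Rian and Mirg, and R4 to R9 stand among the miRNA genes.

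The region beside Rtl1 came first in genome order. R1 (chr12:110825125-110825844, 719 bp) had 44 reads in limb and 21 in heart, an RPKM of 0.318 in limb and 0.131 in heart. It lay 1559 bp from Rtl1 and 15189 bp from Meg3, in intergenic sequence by this annotation, and 308 bp before the hairpin of Mir3070a. R1 had the lowest RPKM of the 9 in both tissues. The ratio of limb to heart RPKM was 2.42 (exact 95% interval 1.41 to 4.29).

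First of the regions after Rian, R2 (chr12:110925859-110927021, 1162 bp) had 277 reads in limb and 215 in heart, the most reads of any member in both tissues. Its RPKM was 1.24 in limb and 0.832 in heart. The limb to heart ratio, 1.49 (1.24 to 1.79), was the lowest of the 9. R2 is also among the limb regions at snRNA and snoRNA genes, since it was 1 of 3 limb-list regions (0.278%) that overlapped an annotated snoRNA gene. Its nearest hairpin, Mir882, was 5376 bases before it.

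Between the snoRNA genes and the miRNA cluster lay R3 (chr12:110941076-110942384, 1308 bp), the longest member. It had 105 reads in limb and 55 in heart, with an RPKM of 0.417 and 0.189. The next hairpin, Mir379, the first after R3, began 4885 bases further on. R2 and R3 were the only members of the 9 farther than 1000 bp from an annotated miRNA gene.

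The other 6 regions lay among the miRNA genes, each intergenic by the annotation apart from the end of R4. They were R4 at chr12:110949144-110950001, R5 at chr12:110952053-110952969, R6 at chr12:110956084-110956925, R7 at chr12:110959465-110960592, R8 at chr12:110963430-110964434 and R9 at chr12:110965779-110966223. R4 had 121 reads in limb and 80 in heart, an RPKM of 0.734 and 0.420, between the hairpins of Mir299a and Mir380. R5 had 100 reads in limb and 54 in heart, an RPKM of 0.567 and 0.265, between Mir329 and Mir494. These first members of the cluster had levels in the middle of the 9 in both tissues. R6, with 259 reads in limb and 178 in heart, had the highest RPKM of the 9 in both tissues, 1.60 in limb and 0.952 in heart, and stood between Mir543 and Mir495. Its level was thus above those of the regions on either side, and the read counts of R6 and R2 exceeded those of the other 7 in limb and in heart. R7 had 106 reads in limb and 65 in heart, an RPKM of 0.489 and 0.259, between Mir667 and Mir376c. R8 had 174 and 106 reads, an RPKM of 0.900 in limb and 0.475 in heart, between Mir300 and Mir381. R9, the shortest member at 444 bp, had 35 reads in limb and 14 in heart, an RPKM of 0.410 and 0.142, between Mir487b and Mir539. Reads were thus higher in limb in each of the 6, as the selection required, and heart reads were present in each of them as well.

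**Figure D2:**
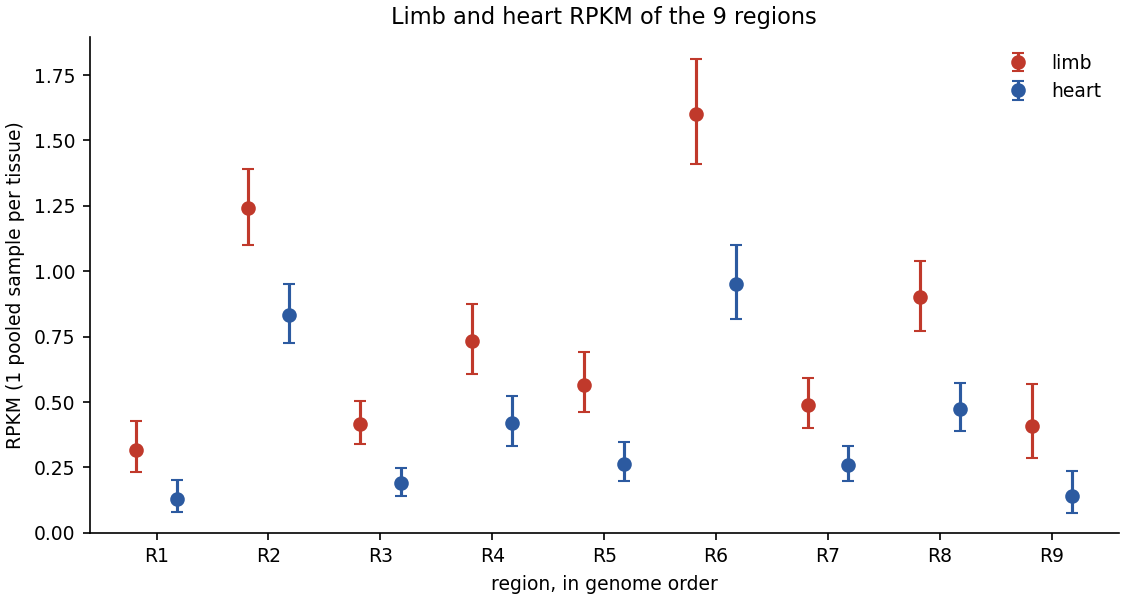
RPKM of R1 to R9 in limb and heart, 1 pooled sample per tissue, with exact 95% Poisson intervals of the read counts as bars. R6 is highest in both tissues, at 1.60 and 0.952, and R1 is lowest, at 0.318 and 0.131.

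The order of the 9 regions by RPKM was the same in limb and heart, namely R6, R2, R8, R4, R5, R7, R3, R9 and R1 from high to low. All 9 ranks were thus equal, which is given as a description because all points share the same pair of libraries and the same selection. Not every step of that order exceeds counting error. By exact Poisson intervals of the counts, neighbours in the limb order were separated between R6 and R2 and between R2 and R8, and the other 6 neighbouring pairs overlapped. In heart, neighbours were separated between R2 and R8 alone, where RPKM was 0.832 (0.725 to 0.951) and 0.475 (0.389 to 0.574). The 9 regions spanned a range of RPKM from 0.318 to 1.60 in limb. The levels did not follow their position simply, since the lowest and highest members of R4 to R9 by limb RPKM, R9 and R6, lay in the same run of miRNA genes.

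The limb to heart ratio of each region was below the median of the limb list. It was 2.21 (1.58 to 3.11) in R3, 1.75 (1.31 to 2.35) in R4 and 2.14 (1.52 to 3.04) in R5. In R6 it was 1.68 (1.38 to 2.05), in R7 1.88 (1.37 to 2.61), in R8 1.90 (1.48 to 2.44) and in R9 2.89 (1.51 to 5.81). R9 thus had the highest ratio and the fewest reads. Summed over the 9 regions there were 1221 reads in limb and 788 in heart, a ratio of 1.79 (1.64 to 1.96) after division by the library totals, and 2.64 over the whole limb list. The median ratio was 1.90 in the 9 regions and 4.10 in the limb list. Among the 563 limb regions outside the window with limb reads in the members' range it was 2.83, which R9 alone exceeded. In the 196 limb-list regions with at least 100 limb reads it was 2.46.

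At least 2-fold more limb than heart RPKM was found in 4 of the 9 regions, R1, R3, R5 and R9, while 89.1% of the limb list (961 of 1078) passed that limit. At 1.5-fold, 8 of the 9 passed, all but R2, and 99.3% of the limb list did. Both counts describe values that chose the members. All 9 members had at least 30 limb reads, and among the 666 limb regions with that many, 82.4% passed 2-fold. Of the 7 members with at least 100 limb reads 2 passed 2-fold, R3 and R5, beside 66.8% of the 196 such regions of the list. No member was without heart reads, beside 130 regions of the limb list (12.1%), 37 of the 666 with at least 30 limb reads (5.56%) and 30 of the 563 outside the window with limb reads in the members' range (5.33%), so with 9 members a count of 0 does not set them apart. The exact interval of the ratio reached from below 2 to above it in 8 of the 9 regions, and in R2 it ended at 1.79. The rest of the limb list was not counted by intervals, so this describes the precision of the members only.

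**Figure D3:**
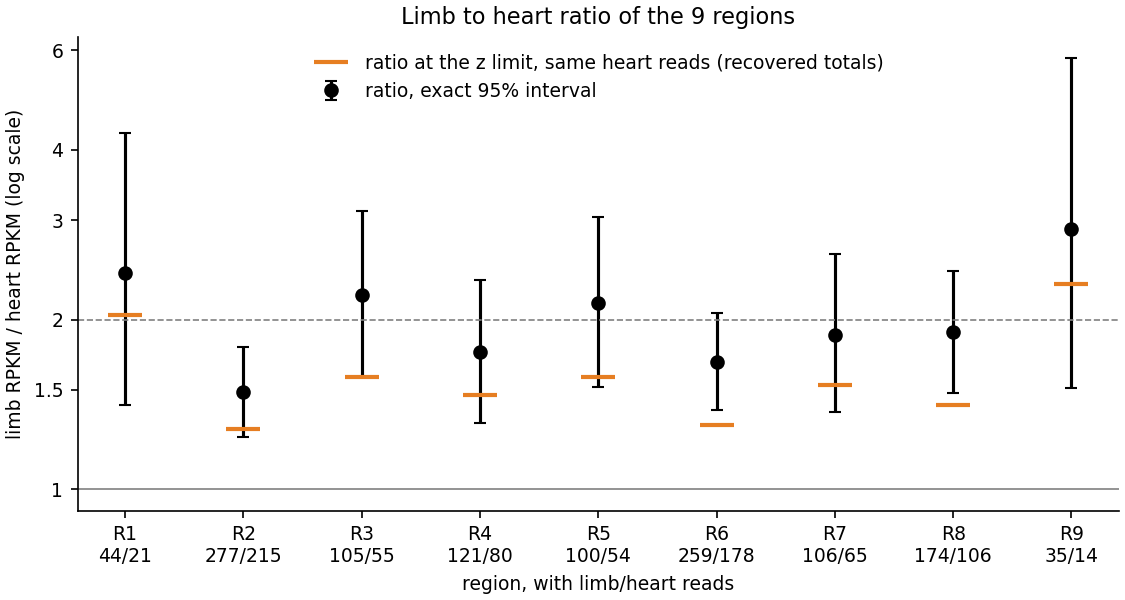
Ratio of limb to heart RPKM of each region on a log axis, with exact 95% intervals as bars, limb and heart reads under each name, and an orange mark at the ratio where a z of 2.58 is reached with the same heart reads and the library totals recovered from the RPKM. The ratios run from 1.49 in R2 to 2.89 in R9, the dashed line marks 2, and each ratio lies above its orange mark.

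How low a ratio passed a z of 2.58, the two-sided limit at a p of 0.01, depended on the reads. The study's test used totals without ribosomal reads, which are not in the deposited values, so the limit was computed with the totals recovered from the RPKM and, as an approximation, with totals less the ribosomal share of the study's read summary. With its 215 heart reads, R2 reached the limit at 238 limb reads with the recovered totals and at 222 without ribosomal reads, both a ratio of 1.28, and had 277. R9, with 14 heart reads, reached it at 28 and 26 limb reads, a ratio of 2.31 and 2.30, and had 35. R1, the member nearest to the limit by its z statistic, reached it at 37 and 35 and had 44. The z statistic ran from 3.44 in R1 to 5.39 in R6 with the recovered totals and from 3.74 to 6.16 without ribosomal reads. Neither limit is exactly that of the study. With the recovered totals 3 of the 1078 limb regions had a z under 2.58, the lowest 2.57, and without ribosomal reads none did, while 179 and 221 of the 834 heart-list regions fell under the limit for heart. The limit is thus higher, as a ratio, for regions with few reads.

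The tissue-specificity index, the difference of the RPKM of both tissues divided by their sum, is zero for equal levels and 1 for a region without reads in the other tissue. Its median was 0.309 in the 9 regions, from 0.196 in R2 to 0.486 in R9, and 0.608 in the limb list. Among the 563 limb regions outside the window with limb reads in the range of the members, the median was 0.478, and 83.1% passed 2-fold. These 563 had fewer reads, a median of 69.0 limb reads against 106 in the members. In the 196 limb-list regions with at least 100 limb reads the median index was 0.422, and in the 7 such members 0.306. R2 stood above 0.649% of the limb list by this index, R6 above 2.88% and R9 above 32.3%. By heart RPKM the members ran from R1, above 64.5% of the limb list, to R6, above 95.5%. In the 563 regions the median heart RPKM was 0.144, exceeded by all members but R1, at 0.131, and R9, at 0.142. Over the 9 regions the index had a Spearman's rho of -0.933 with limb reads and 0.150 with position, both descriptions of 9 points that share 2 libraries, and the z limit for listing, a lower ratio where reads are more, bears on the first.

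**Figure D4:**
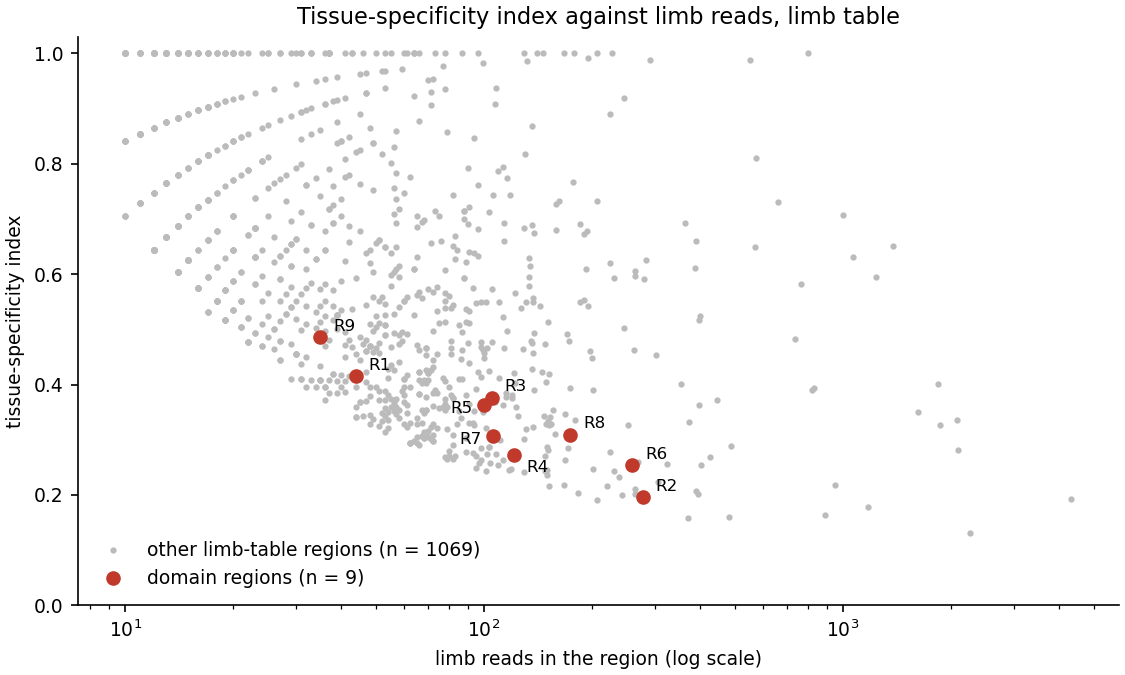
Tissue-specificity index of the 1078 limb-list regions against their limb reads on a log axis, with the 9 domain regions in red. The members run along the lower part of the cloud, from R9 at 0.486 to R2 at 0.196, and no region stands in the corner of few reads and low index, where the z limit for listing is highest as a ratio.

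As a share of the limb list the 9 regions made up 0.835% of its regions, 1.27% (1.20 to 1.35) of its limb reads, which sum to 95819, and 1.88% (1.75 to 2.01) of its heart reads, which sum to 41933. Their share was thus higher in heart reads than in limb reads within a list chosen for higher limb reads. Intervals of shares are exact binomial (Clopper-Pearson).

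The window was chosen as a known locus of miRNA genes, so closeness to them is a description of where the members stood and is no comparison with the rest of the list. By the GENCODE annotation 7 of the 9 lay within 1000 bp of an annotated miRNA gene, all but R2 and R3. The limb list held 11 such regions in all (1.02%), these 7 included. Within 5000 bp there were 8 of the 9, and 26 in the limb list (2.41%). An overlap with a miRNA gene was found in 1 region of the whole list (0.0928%), R4, whose last 13 bases lay in AC121784.3, a miRNA gene annotated on the minus strand at chr12:110949989-110950100. This gene spans the Mir380 hairpin, placed on the plus strand, which R4 itself did not reach. By the RefSeq hairpins placed by sequence 0 of the 9 overlapped a hairpin and 7 lay within 1000 bp. The annotation that the authors removed may itself list miRNA genes, so the lack of overlap and that removal cannot be told apart.

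**Figure D5:**
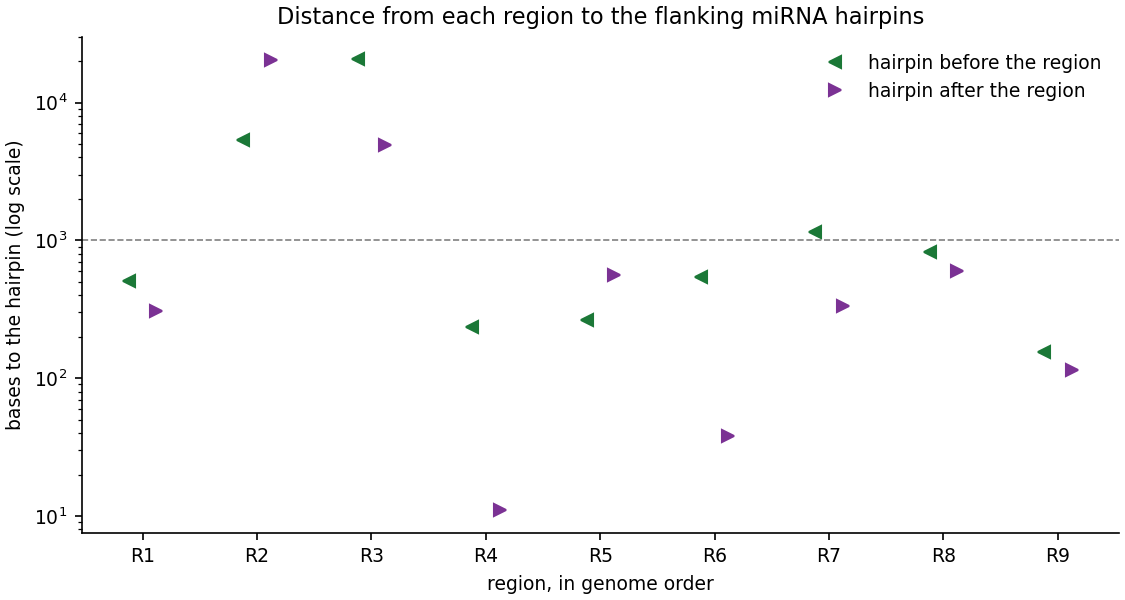
Bases between each region and the nearest RefSeq miRNA hairpin before it (left-pointing) and after it (right-pointing) on a log axis, with the dashed line at 1000 bases. R4 to R6, R8, R9 and R1 have a hairpin within 1000 bases on both sides, R7 on the side after it, and R2 and R3 on neither side.

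Hairpins stood on both sides of the closest regions. R9 had Mir487b 155 bases before it and Mir539 115 bases after it. R4 had Mir299a 234 bases before it and Mir380 after it at the distance given above. R5 had Mir329 266 bases before it and Mir494 558 bases after it, and R8 had Mir300 829 bases before it and Mir381 597 bases after it. R7 had Mir667 1158 bases before it and Mir376c 335 bases after it. R1 had Mir665 508 bases before it. R6, the region with the highest RPKM, thus had a hairpin at a distance that only R4 undercut.

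Successive regions from R2 to R9 were 1345 to 14055 bp apart, with a median of 2838 bp, and the gap from R1 to R2 was 100015 bp. Joining regions at most 1000 bp apart left 9 loci, so no pair counted as 1 locus at that distance. At 5000 bp they formed 4 loci, with R4 to R9 joined to 1, and at 10000 bp they formed 3 loci. The deposited tables give no values between the regions, so whether reads continued across the gaps was not analysed here.

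Outside the window the nearest listed region before it was a limb region at chr12:110025531-110026128, 673872 bp from the edge, with 52 limb and 29 heart reads, 5055 bp from the start of Yy1, which encodes a zinc finger transcription factor. The nearest after it, also a limb region, lay at chr12:114057457-114057747, 2957457 bp from the edge, with 18 limb and 6 heart reads, and its closest coding start was that of Cdca4. The last heart-list region of chromosome 12 ended 10.6 Mb before the window. The chromosome had 59 limb and 25 heart regions in all, the members included. The spacing of its other regions was not analysed, so whether these distances are unusual was not tested.

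The limb-list regions with levels most like the median of the members in both tissues (by distance in log2 RPKM) were not near this locus. The closest, chr10:96086243-96087694, had 149 limb and 87 heart reads and lay 6609 bp from the start of Btg1, an antiproliferative gene. The next pair overlapped each other on chromosome 5, chr5:100848861-100849446 with 61 limb and 33 heart reads and chr5:100847661-100848945 with 137 and 81, so they may share reads. Both had Sec31a, which encodes a coat protein of secretory vesicles, as the closest coding start. Their likeness is one of levels in 2 samples.

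Other imprinted genes were looked at by the listed regions within 100 kb of each gene, whereas the members were taken from a fixed window. Of 35 such genes 33 were annotated (not Kcnq1ot1 and Peg13), 11 had a limb region nearby (16 regions) and 3 a heart region (4 regions). Neighbouring genes shared regions, as Copg2 did with Mest, Sgce with Peg10 and Nespas with Gnas. The same count over all genes was not made and the limb list is the longer, so these counts do not compare the tissues. Grb10, which encodes a growth factor receptor adaptor, had 6 limb regions, with 39 limb and 15 heart reads in the region with the highest index, 0.500, and 94 and 55 in the one with the lowest, 0.328, an index within the range of the members. Beside Mest, an imprinted gene of mesoderm, a limb region had 129 limb reads and 0 heart reads, and the H19 and Igf2 pair shared a limb region with 19 limb reads and 1 heart read, an index of 0.913. Plagl1, a zinc finger gene, had a heart region, with 135 heart and 17 limb reads. Peg10 and Sgce, Copg2, Gnas and Nespas, Rasgrf1 and Mcts2 had limb regions within that distance, and Ddc and Grb10 heart regions. Over the limb-list regions near these genes the lowest index was 0.328, and several had no heart reads, while the members ran from 0.196 to 0.486. Within the members' range lay every Grb10 limb region but the one at 0.500. Regions near Gnas (0.388), Rasgrf1 (0.444) and Mcts2 (0.462) lay in it as well. Limb reads reached 277 in the members and 129 in these regions, and a lower ratio passes the z limit where reads are more.

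As a check of the tissue labels, 4 of 5 heart marker genes (Nkx2-5, Myl2, Gata4 and Myh6, and not Tnnt2) had heart-list regions within 100 kb, 18 in all, with 1 limb region, beside Myl2. Of 5 limb marker genes 3 (Lmx1b, Prrx1 and Msx1, and not Hoxd13 or Hoxa13) had limb-list regions, 17 in all, and none had a heart region. The marker transcripts themselves are not in the deposited values. In whole pooled tissue, more cells that transcribe a region and more RNA per cell cannot be told apart, and this holds for each value of R1 to R9.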

How the data were processed

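Total RNA of mouse heart and limb, 1 pooled sample each, was sequenced from strand-specific libraries. Per the labels and the study's methods, the authors filtered reads with CASAVA 1.8, aligned them with Bowtie2 (version not given in the sources used here) to mm9, excluded repetitive reads, extended alignments to 200 bp, called enriched regions with at least 10 reads using USeq, removed those overlapping refGene genes, messenger RNAs or ESTs, and kept regions with a two-proportion z-test p below 0.01. The authors deposited raw counts and RPKM per region, the latter scaled by region length and library total. These totals, recovered as counts over RPKM and length, were 222362239 in heart and 192488089 in limb, and the reads per region set the precision. The authors' z-test had already selected every region.

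The members and gene lists were chosen with earlier results of these data known, and the study's own list of regions had been read. Named were every region of the window, its coding and long non-coding genes, the small RNA genes inside or nearest to a region, the nearest regions outside, the 3 most alike, and imprinted genes with a region within 100 kb. With 1 sample per tissue no test was run. RPKM has exact Poisson intervals and ratios have exact Clopper-Pearson intervals, at 95%, for counting error only. The interval code was tested on simulated data. Genes came from GENCODE vM1 on the NCBIM37 genome, the same build as mm9. Deposited starts were read as zero-based. RefSeq miRNA sequences (GRCm38.p6 table) were placed by exact match, and no coordinate of that table was used. Python 3.11.15, numpy 2.4.6, pandas 2.3.3, scipy 1.17.1, matplotlib 3.10.9 and blastn 2.17.0 were used. Alternatives varied library totals, read minimums, added reads, fold limits and distances. The z limit under both totals, placing RefSeq hairpins, the minimum of 100 reads for the limb list and counting regions by their intervals were added after the data were seen.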

Additional observations from a re-analysis of the deposited data

How the results depend on the processing

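Limb stayed higher than heart in the pooled ratio and the median index under all alternatives run for them. This is no support for the direction, because every region was listed for higher limb reads. Of 27 alternatives in all, 17 left a count within 1.5 times the reported one, or a ratio, index or percentage within its counting interval. The pooled limb to heart ratio was 1.55 without scaling by library totals and stayed between 1.75 and 1.92 under the other 5 alternatives. The number of regions at 2-fold rose from 4 to 6 with totals without ribosomal reads, was 8 at 1.5-fold, 0 if the whole interval had to reach 2, and 8 if the interval had to reach it at all. The limb list was not counted with those totals or by intervals, so these counts cannot be set against it. In the limb list, 82.4% passed 2-fold with at least 30 limb reads, 66.8% with at least 100, and 99.3% passed 1.5-fold. Of the regions within 1000 bp of a miRNA gene, 1 remained when overlap was required. Joined loci numbered 4 at 5000 bp and 3 at 10000 bp. No paired analysis was possible because each tissue has 1 sample. No replicate could be left out for the same reason, and depth limits R1 and R9 most, with 21 and 14 heart reads.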
